A study of Mus musculus with 2 samples.

Results

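Transcript models that the deposited tables class as incomplete matches of subtype None or Both were examined in mouse gastrocnemius. An incomplete match is a model that holds part of an annotated transcript and adds no splice site of its own. Members were all such models outside the spike-in loci: 2253 of 72416 mouse models in replicate 1 and 3059 of 88614 in replicate 2. They held 23649 reads in replicate 1 and 71305 reads in replicate 2. This was 2.28% (Wilson 95% interval 2.25% to 2.31%) and 5.17% (5.13% to 5.21%) of the reads in annotated genes.

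The study sequenced long reads of RNA from the gastrocnemius, a calf muscle, of male B6CASTF1/J mice at 36 days of age. They are first-generation offspring of C57BL/6J and CAST/EiJ. The labels give 1 group with 2 libraries, each from 2 µg of RNA with Lexogen SIRV and Ambion mix 1 spike-ins, and no treatment. Replicate 1 is male 03 and replicate 2 is male 04, and both carry the same donor entry, so it is not certain that the spread between them is between animals.

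A spliced gene is copied into a long precursor, its introns are removed, and the finished transcript runs from a capped 5′ end to a 3′ end that carries a poly(A) tail. Cleavage before the tail follows a signal, most often AATAAA, a short way upstream. Long-read software compares the chain of splice junctions of each read with the annotation: a run that lacks 5′ exons is named Suffix, a run that lacks 3′ exons Prefix, a run that is the start of 1 annotated transcript and the end of a different transcript Both, by the usual use of the term, and any other incomplete run None. A read of 1 exon has no junction to compare, and its place must be read from its ends.

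The sequences below are those at the edges of single-exon models of 6 of the leading genes and of Klf9. The class of Klf9 differed between the libraries. By their coordinates these models begin at the first base of an annotated last exon. The bases were read from the annotation at that place, so they illustrate it and do not test it. Lower case marks the last 15 bases of the exon before, which the model lacks, and capitals mark the first 15 bases of the model. They are reference sequence of GENCODE M21 transcripts, 5′ to 3′, on mm10.
Des, exon 9 of 9: acccgggatggagagGTTGTCAGCGAGGCT
Uqcrq, exon 2 of 2: tgcgcgtggcgccgcCGTTTGTAGTGGTCT
Cox6a2, exon 3 of 3: cgcatccgaaccaagCCCTTCGCCTGGGGG
Ndufb3, exon 3 of 3: ggatccatgggctcgCAATGAGGCTTGGAG
Xirp2, exon 9 of 9: cagcagtaagctgagCTTGGGAAATTACGC
Myom1, exon 38 of 38: attcaagagggcaagGCACTCAATCTCACT
Klf9, exon 2 of 2: acagagtgcatacagGTGAACGGCCCTTTC

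At the other edge, the last 30 bases of most of these models are shown with AATAAA in capitals, since this signal is what the 3′ ends were searched for. In Cox6a2 neither AATAAA nor its variant ATTAAA stood in this window.
Des: ggacagaaacaatAATAAAgagacaagcac
Cox6a2: caagcaatacattgaatattgagcatatta
Ndufb3: tcttaAATAAAattaaaaagaaaactgtaa
Xirp2: tttctgataaAATAAAattttgtcaactga
Myom1: tgtgAATAAAgtctcctgcctttcctcttt
Klf9: aaaatAATAAAtgataaagattaaattgtt

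The tables held 1106945 and 1514119 reads, of which 1066170 and 1477435 were from the mouse and 1036455 and 1374068 were in annotated genes. Levels are given in CPM, scaled to 1e6 of the reads in annotated genes. A count of 0 allows up to 3 reads, which is 2.89 CPM in replicate 1 and 2.18 CPM in replicate 2. Molecular identifiers were not part of the tables, and intervals, floors and p-values cover counting error only. Defining fibre genes (Ckm, Acta1, Myh4, Ttn and Des) summed to 169749 and 146765 CPM. Of these, Ckm (74418 and 65797 CPM) and Acta1 (77825 and 60211) were lower in replicate 2. Myh4 (14068 and 16533 CPM), Ttn (254 and 317) and Des (3184 and 3907) were higher there. Fibroblast markers summed to 1675 and 456 CPM and Schwann cell markers to 929 and 333 CPM. Adipocyte markers summed to 84.9 and 263.5 CPM and immune markers to 30.9 and 21.8 CPM. Pax7 and Ptprc had 0 reads in both libraries, and Myf5, the other satellite cell marker, had 0 and 1. In bulk tissue, fewer cells of a type and less RNA per cell cannot be told apart.

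Most reads of the member models were in models of a single exon. These numbered 1901 in replicate 1, with 20264 reads or 85.7% (Wilson 85.2% to 86.1%) of member reads, and 2721 in replicate 2, with 63069 reads or 88.5% (88.2% to 88.7%). Every one of them was of subtype None, and no single-exon model was classed Prefix, Suffix or Both in either table. Spliced models of subtype Both numbered 205 and 211, with 3169 and 8099 reads. Spliced models of subtype None numbered 147 and 127 and held 216 and 137 reads, and 98.0% and 95.3% of them rested on 1 read.

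**Figure D1:**
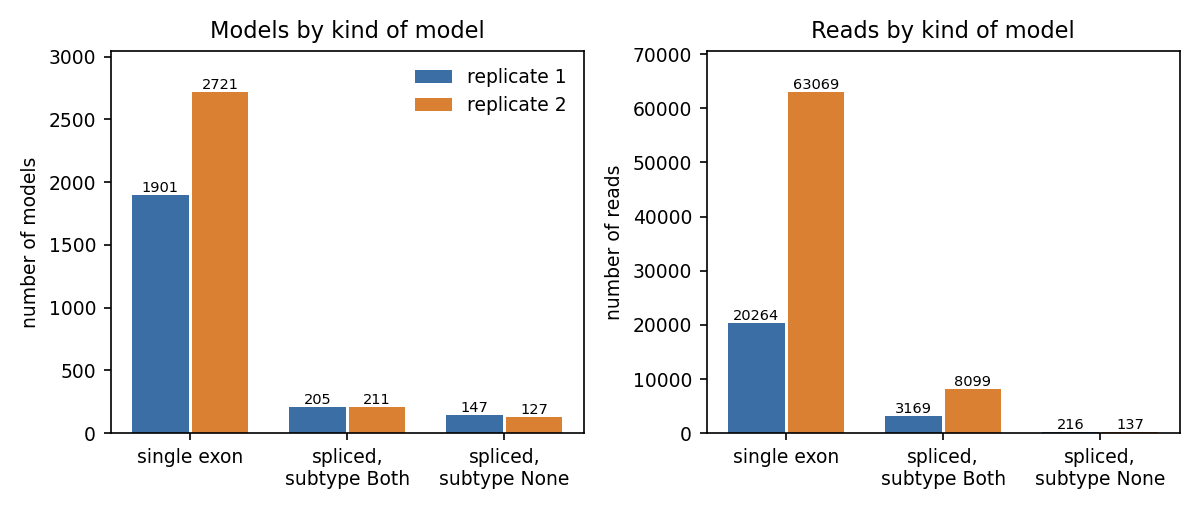
Number of member models (left) and of their reads (right) by kind, with 1 bar per library and the count printed above it. Single-exon models led in both libraries, with 20264 reads in replicate 1 and 63069 in replicate 2, against 3169 and 8099 in spliced models of subtype Both.

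The kinds differed in length. Single-exon models had a median of 583 bases in replicate 1 and 473 in replicate 2, spliced Both models 1816 and 1062 bases, and spliced None models 2155 and 987 bases. Suffix models, the larger class of incomplete matches, had medians of 2046 and 1435 bases. All these medians were lower in replicate 2. The same held for annotated models, with medians of 2333 and 2041 bases for spliced and 1189 and 1053 for single-exon ones. The lower medians were thus not particular to incomplete matches. Over all members the shortest model was 29 and 3 bases long and the longest 8513 and 6065 bases.

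Reads were concentrated in few models. Models with 1 read made up 47.0% of members in replicate 1 and 35.7% in replicate 2, against 60.5% and 58.0% of all mouse models, while the 10 models with the most reads held 38.3% and 39.8% of member reads. Members lay in 2013 of 13414 genes with reads in replicate 1 and in 2739 of 13904 in replicate 2. The 1121 genes with a member in both libraries were 55.7% of the first set and 40.9% of the second. This overlap of genes was not counted for other classes or for all genes, so it does not set members apart. Of the 3631 annotated genes with a member in either library 3458 were protein coding, and these held 99.0% and 98.9% of the reads. A further 14 and 53 members lay in antisense loci and 6 and 19 in intergenic loci.

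Most single-exon models lay on a last exon. A model was counted so if any annotated transcript of its gene had that exon last, even where another transcript ran on. Of the 1759 and 2448 such models that lay wholly in an annotated exon, 60.9% and 58.1% ended where the longest transcript holding them ends, with 69.5% and 61.7% of their reads. Of the 1901 models in replicate 1, 1773 (93.3%) overlapped an annotated last exon, with 98.5% (Wilson 98.4% to 98.7%) of the reads, and of the 2721 in replicate 2, 2458 (90.3%) did, with 98.2% (98.0% to 98.3%). In most of these both ends were those of the exon: 1525 models with 18080 reads and 2131 models with 51965 reads, or 89.2% and 82.4% of single-exon reads. A further 158 and 225 models kept the 5′ end of the exon alone, and 77 and 86 models its 3′ end alone. First exons held 57 and 74 models with 108 and 267 reads, internal exons 22 and 51 models with 73 and 113 reads, and 49 and 138 models met no annotated exon of their gene, with 116 and 788 reads.

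**Figure D2:**
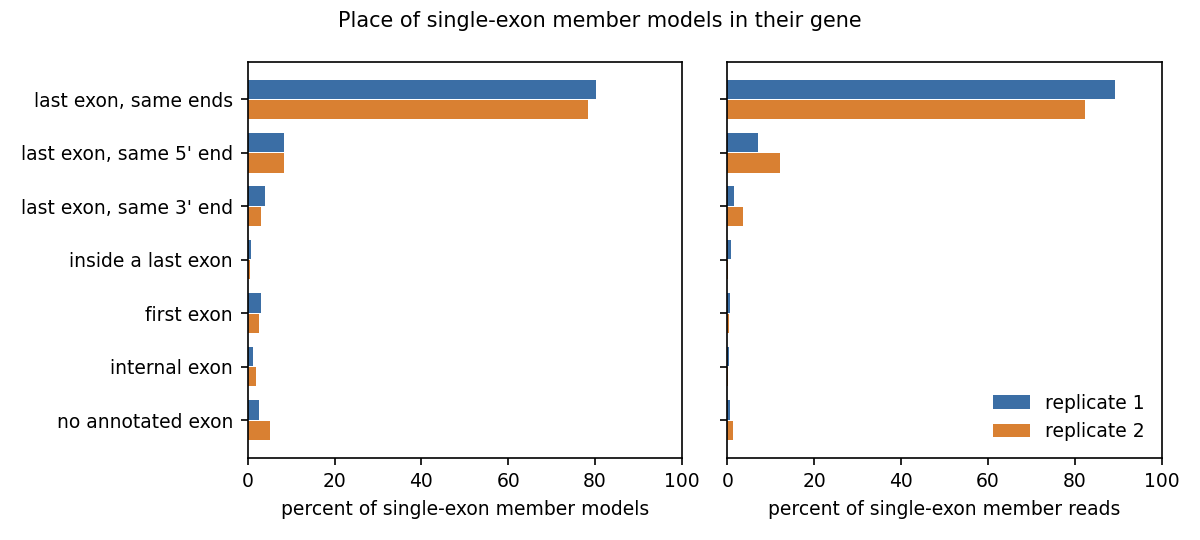
Place of single-exon member models in their gene, as percent of such models (left) and of their reads (right), with 1 bar per library. Models with the ends of an annotated last exon were 80.2% and 78.3% of models, and the next category, models sharing only the 5′ end of a last exon, held 6.98% and 12.2% of reads.

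Where the annotated last exon was of a coding transcript, most models with both its ends carried the end of the coding sequence. Of the models with both ends of a last exon, 1222 in replicate 1 and 1655 in replicate 2 belonged to a coding transcript. Of these, 93.9% and 93.1% held annotated coding bases, and the rest held none. Stop codons themselves were not looked for. In those with coding bases, the medians were 142 and 135 coding bases and 517 and 428 other bases. Single-exon models lacked a median of 7 exons of the longest annotated transcript that held them, which had a median of 8 exons in both libraries, and their centre stood at a median of 76.6% and 78.7% of its length.

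Most spliced models of subtype Both were not the start of 1 annotated transcript and the end of another. Of the 205 in replicate 1, 121 held the last junction of an annotated transcript, 70 held the first junction of one, and 56 held both, of different transcripts. Of the 211 in replicate 2 these numbers were 134, 71 and 58. Models that held only inner junctions numbered 65 and 50, and 5 and 14 were in no single annotated transcript. Of the spliced None models, 124 and 110 held inner junctions alone and 23 and 17 were in no annotated transcript.

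Subtype None is given by junctions, and a model of 1 exon has none to compare. By coordinates, most members met an annotated end of their gene. Of the members in annotated genes, 82.8% in replicate 1 and 82.0% in replicate 2 had a 3′ end at exactly an annotated transcript end of the gene, with 93.1% and 88.7% of the reads. An annotated start was met by 7.61% and 5.96% of the models. Models that met neither numbered 300 (13.4%) and 441 (14.8%), with 6.25% and 10.9% of member reads, and 3944 of the 7714 such reads of replicate 2 were in 1 model of Des. By subtype, an annotated start was met by 45.4% and 43.1% of spliced Both models and an annotated end by 73.2% and 69.7%. Of the spliced None models, 39.5% and 28.4% met an annotated end, and 54.4% and 67.7% met neither.

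**Figure D3:**
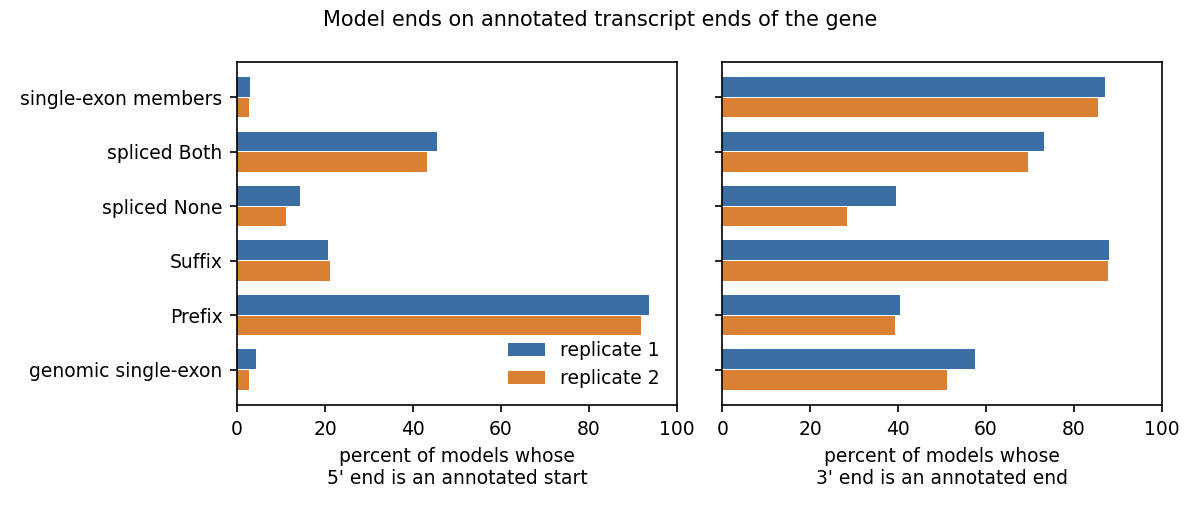
Percent of models whose 5′ end is an annotated transcript start of the gene (left) and whose 3′ end is an annotated transcript end (right), by kind of model and library. Single-exon members met an annotated end in 87.2% and 85.5% of models, close to the 87.9% of Suffix models in both libraries, and an annotated start in 2.98% and 2.76%.

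The coordinates are those of models and not of single reads. Annotated models met annotated ends in 100% of cases, and the class that the tables name genomic, kept apart there from annotated models, incomplete matches and models with new combinations or new junctions, held 292 and 542 models of 1 base over last exons, with 3212 and 18636 reads. Whether the ends of reads were moved onto annotated ends when the models were made was not tested. The share of ends that match the annotation therefore describes the models.

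A poly(A) signal stood near most of the 3′ ends. AATAAA or ATTAAA, with models that held both counted once, was found on the transcript strand in the last 40 bases of 76.1% of the single-exon members in replicate 1 and 74.0% in replicate 2. The share was 70.2% and 69.7% in annotated models with more than 1 exon, 46.6% and 45.1% in spliced members, 33.6% and 33.7% at all annotated last exons of the genes with reads, and 1.71% and 1.75% at the ends of their other exons. Weighted by reads the order differed: 70.3% and 68.7% of reads in single-exon members, 83.0% and 71.1% in spliced members and 84.6% and 84.9% in annotated models with more than 1 exon. In Des, whose model ended inside the annotated last exon at a position that is no annotated end, AATAAA began 16 bases from the end of the model.

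The 15 genes with the highest mean level in member models held 42.8% and 44.9% of member reads. Most were genes of mitochondria, of the sarcomere and of the triad, the junction where the fibre's surface membrane meets its calcium store. Slc25a4, the heart and muscle ADP/ATP carrier of the inner mitochondrial membrane, stood first with 2944 reads (2840 CPM) in replicate 1 and 8942 (6508 CPM) in replicate 2, all in 1 model with the ends of its exon 4 of 4 (chromosome 8, 46206797 to 46207620, minus strand, 824 bases, of which 155 were coding). This was 24.4% and 36.2% of the gene's reads, and annotated models held 9033 and 15468.

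**Figure D4:**
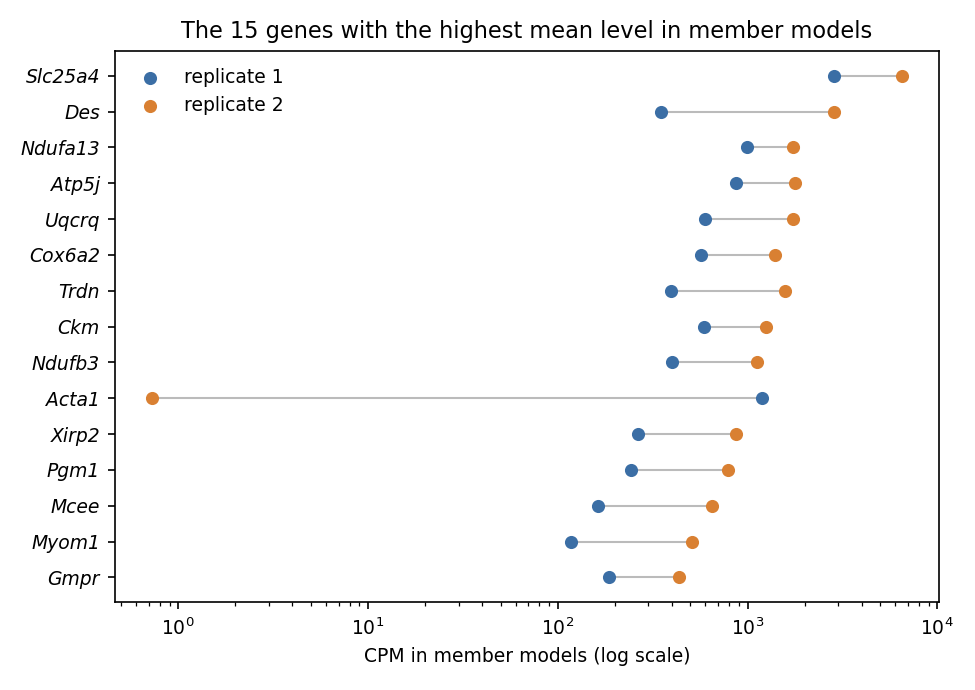
CPM in member models on a log axis for the 15 genes with the highest mean, with 1 point per library joined by a line. The level was higher in replicate 2 for each gene except Acta1, which had 1233 reads in replicate 1 and 1 read in replicate 2.

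Further mitochondrial genes among the leading ones encode small subunits of the respiratory chain. Uqcrq, a subunit of complex III, had 618 and 2394 reads in its 198-base exon 2 of 2, or 39.6% and 49.6% of gene reads. Cox6a2, the muscle form of a cytochrome oxidase subunit, had 590 and 1926 reads in its 378-base exon 3 of 3, or 28.9% and 34.4%. Ndufb3, of complex I, had 415 and 1539 reads in its 316-base exon 3 of 3, or 69.2% and 75.7%. Each of these models holds the end of the coding sequence, with 92, 81 and 154 coding bases in Uqcrq, Cox6a2 and Ndufb3 in turn. Their shares differed between the libraries by 9.98, 5.51 and 6.57 percentage points, under the 10 points set for a call. As reads of the structure given the library totals, the models of Uqcrq, Cox6a2 and Ndufb3 were higher in replicate 2 by log2 ratios of 1.55, 1.30 and 1.48, with Benjamini-Hochberg adjusted p of 8.86e-147, 3.69e-91 and 8.47e-89 in the exact binomial test.

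In Ndufa13 and Atp5j the reads were in spliced models of subtype Both. Ndufa13, an accessory subunit of complex I, had 1013 and 2344 reads in a 573-base model of 4 exons that lacks the first of 5 exons of its longest annotated form (chromosome 8, 69894180 to 69901732). With 0 reads in annotated models in either library, member models held 99.9% and 97.2% of its reads. Atp5j, a subunit of the coupling stalk of ATP synthase, had 901 and 2430 reads in a model of 4 exons on chromosome 16, with 77.1% and 80.8% of gene reads in member models. Its model met an annotated end and also an annotated start, that of a transcript of the retained-intron type, so both of its ends were annotated ones.

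Des encodes desmin, the intermediate filament that ties the Z-discs of neighbouring myofibrils together. Its member reads were 363 in replicate 1 and 3944 in replicate 2, all in 1 model of 705 bases that starts with exon 9 of 9 and stops before its annotated end (chromosome 1, 75367009 to 75367713). The share was 11% (Wilson 9.98% to 12.1%) and 73.5% (72.3% to 74.6%), while reads in annotated models were 2838 and 1289 and all gene reads 3300 and 5368. The difference of 62.5 percentage points was called by Fisher's exact test, and no genomic single-exon model over the last exon held reads in either library.

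Other sarcomere genes had the same kind of model. Xirp2, an actin-binding protein of the intercalated disc and Z-disc, had 274 and 1199 member reads, almost all in its 1835-base exon 9 of 9, or 79.9% and 93.8% of gene reads, with 0 reads in annotated models. Myom1, the M-band protein myomesin, had 122 and 701 reads, or 25.6% and 83.3%. Reads of Myom1 in annotated models were 189 and 41.

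Ckm and Acta1, the muscle creatine kinase and skeletal actin, had many member reads and small shares. Ckm had 608 reads in a 1634-base model in replicate 1 and 1720 in a 377-base model in replicate 2, with the same first base and different annotated ends, or 0.788% and 1.90% of gene reads. Acta1 had 1233 reads in replicate 1, of which 1231 were in its 384-base exon 7 of 7, and 1 read in replicate 2. In replicate 2 the genomic class held 2662 reads over the last exon of Acta1, and in replicate 1 it held 0.

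Among genes of the triad, Trdn encodes triadin, which anchors calsequestrin to the calcium release channel, and Cacna1s the voltage sensor of the surface membrane. Cacna1s had 144 and 471 member reads, or 24.3% and 78.2% of gene reads (Fisher's exact test, Benjamini-Hochberg adjusted p = 1.71e-79). Jsrp1, a triad protein that binds the voltage sensor, had 20 and 407, or 5.26% and 50.6%. Its member reads were all spliced in replicate 1 and all single-exon in replicate 2. Genomic single-exon models over its last exon held 77 and 0 reads. With these counted too, the shares of Jsrp1 were 25.5% and 50.6%, still called. Jph2, junctophilin 2, had 0 of 89 reads in replicate 1, which allows a share of up to 3.37%, and 126 of 138 in replicate 2, or 91.3%.

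Trdn had 408 and 2163 member reads, 35.1% and 67.9% of gene reads, and as in Ndufa13 and Atp5j most were spliced: 34 and 83 reads were single-exon. In replicate 1, 327 reads were in a model of exons 1 to 10 of a 38-exon transcript (chromosome 10, 33083483 to 33233926). Both ends of this model were annotated ones of the gene, and its start was that of a protein-coding transcript. In replicate 2, 1930 reads were in a model of 5 exons that ends at the same base and starts at exon 6 (33183954). The first structure had 382 reads in replicate 2 under Prefix, and the second had 411 reads in replicate 1 under Suffix, so the member reads of Trdn were of different structures in the 2 libraries. Counted under any class, the reads of the 10-exon structure did not differ past the threshold (exact binomial test, Benjamini-Hochberg adjusted p = 0.172, log2 ratio -0.18), and those of the 5-exon structure were higher in replicate 2 (log2 ratio 1.82, adjusted p = 3.94e-149).

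Genes of metabolism made up the rest of the leading genes. Pgm1, phosphoglucomutase, which joins glycogen breakdown to glycolysis, had 251 and 1090 member reads, or 18.0% and 54.5% of gene reads. Mcee, methylmalonyl-CoA epimerase, had 169 and 892, or 68.7% and 85.9%. Gmpr, GMP reductase of purine salvage, had 194 and 600, or 47.8% and 68.6%.

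By share alone, among genes that reached 100 reads in both libraries, the leading ones were again Ndufa13, Xirp2, Atp5j, Mcee and Ndufb3, together with Col4a2, Rtn4, Nol7, Samm50 and Tmem160. Col4a2, a chain of basement membrane collagen, had 123 of 217 and 396 of 422 reads in members, or 56.7% and 93.8%. Rtn4, a reticulon of the endoplasmic reticulum, had 49.7% and 82.1%, and Samm50, of the sorting machinery of the outer mitochondrial membrane, had 47.0% and 74.4%. Nol7, a nucleolar protein, had 55.7% and 74.1%, and Tmem160 55.9% and 63.6%, a difference that was not called (Fisher's exact test, Benjamini-Hochberg adjusted p = 0.39).

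Of the other spliced structures, Aldoa, muscle aldolase, had 368 reads in replicate 1 in a 481-base model of its last 2 exons, and the same structure had 1006 reads in replicate 2 under Suffix. Lmna, the nuclear lamina protein lamin A/C, had 55 and 269 reads in a 329-base model of 2 exons. Fxyd1, a regulator of the sodium pump, had 32 and 135 reads in a 376-base model of 2 exons that met a retained-intron start and an annotated end. Wwp1, a ubiquitin ligase, had 0 member reads in replicate 1, where the structure had 25 reads under Suffix, and 99 in replicate 2.

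The genes with the most different member structures were muscle genes. Trdn had 44, Ttn 36, Atp2a1 30, Myh4 22 and Myh2 10 over both libraries. Ttn, the giant spring of the sarcomere, held 19 and 27 member reads (7.22% and 6.21% of its reads), and Atp2a1, the calcium pump of the store, 122 and 89 (0.117% and 0.249%). The fast myosin heavy chain genes Myh4 and Myh2 held 18 and 12 reads and 15 and 5 reads. With genomic single-exon models of the last exon counted too, the shares were 35.0% and 61.6% for Ttn and 3.35% and 20.5% for Myh2. Trdn stood at 35.1% and 68.6% in that count, and all 3 were called. Myh4, with 2.25% and 6.28%, and Atp2a1, with 0.117% and 0.607%, were not called. Of these 5 genes Trdn had the most member reads in both libraries. All reads of the gene were 104072 and 35745 for Atp2a1, 14581 and 22718 for Myh4 and 263 and 435 for Ttn. The part of read depth and gene length in the number of structures was not tested.

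In the 1834 genes that reached 50 reads in both libraries, the share in member models was 0 in 60.7% of genes in replicate 1 and 50.7% in replicate 2. It was at least 10% in 135 and 270 genes and at least 50% in 19 and 69, and its mean was 2.98% and 6.15%. By number of exons of the leading annotated transcript, the mean share was 4.47% and 6.53% in genes of 2 to 3 exons and 2.41% and 4.63% in genes of 4 to 6. It was 2.28% and 5.41% in genes of 7 to 12, 3.265% and 9.162% in genes of 13 to 24, and 6.22% and 16.0% in the 42 genes of 25 exons or more. Pooled over reads the order differed, with 4.614% and 7.002% in genes of 2 to 3 exons and 1.925% and 6.578% in those of 25 or more. By length of the last exon the mean share was 1.53% and 1.73% in genes with a last exon of 200 bases or less, 2.88% and 8.06% at 801 to 1600 bases, 4.03% and 7.56% at 1601 to 3200 bases and 2.60% and 4.22% at 3201 bases or more, with no steady order. Across 1722 genes, which are not independent replicates and share the libraries, the rank correlation of share with last exon length was -0.03 and -0.07, and that of the shares of the 2 libraries with each other was 0.44.

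Among 1108 genes whose leading annotated transcript has 6 or more exons, reads that ran unbroken to the last junction or held the last exon alone were sorted by the number of exons kept. The incomplete ones were 10.8% of these reads in replicate 1 and 19.5% in replicate 2. Incomplete matches of the last exon alone made up 13.6% and 20.2% of the incomplete reads, those with 2 exons 14.1% and 19.7%, and those with 6 or more exons 45.9% and 19.8%. Replicate 2 thus held more incomplete reads and its incomplete reads kept fewer exons.

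With 1 library on each side, a test compares these 2 libraries and not conditions. Each gene's reads inside and outside member models were compared with a two-sided Fisher's exact test, Benjamini-Hochberg adjusted over the 1834 genes, with a call needing an adjusted p under 0.05 and a difference of 10 percentage points or more. Of these genes 236 (12.9%) passed, 194 (10.6%) with the higher share in replicate 2 and 42 (2.29%) with the higher share in replicate 1. Of the 15 leading genes, 8 (Slc25a4, Des, Trdn, Xirp2, Pgm1, Mcee, Myom1 and Gmpr) were called, all higher in replicate 2, with an adjusted p of at most 2.37e-08 (Mcee). The median lengths above were shorter in replicate 2, in members and in annotated models alike, and its marker sums for fibroblasts were lower. The part of either in these differences was not tested.

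In the genes with the largest differences of share, 1 of the libraries had few or no member reads. Higher in replicate 2 were Ywhag, a signalling adaptor protein, with 0 of 58 reads and 82 of 88, Jph2 as given above, Aqp1, a water channel, with 0 of 61 and 73 of 83, Perm1, a regulator of muscle energy metabolism, with 0 of 63 and 132 of 154, and the antisense gene Gm29773 with 4 of 73 and 284 of 329. Higher in replicate 1 were the transcription factor gene Klf9 with 169 of 211 reads and 2 of 196, Fam131a with 79 of 115 and 0 of 409, Sdhaf4, an assembly factor of succinate dehydrogenase, with 56 of 106 and 0 of 257, Scand1 with 39 of 76 and 0 of 161, and the histone chaperone gene Anp32e with 26 of 51 and 1 of 64. A count of 0 allows a share of up to 5.17% for Ywhag and 0.733% for Fam131a.

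In most of these genes the other library had its reads of the last exon under another class. Klf9 had 169 member and 0 genomic reads over its last exon in replicate 1, and 2 member and 183 genomic reads in replicate 2. Fam131a had 79 and 0 against 0 and 380, and Sdhaf4 56 and 0 against 0 and 182. In the other direction Ywhag had 0 member and 47 genomic reads in replicate 1 against 82 and 1, and Jph2 0 and 62 against 126 and 0. In 3 genes the genomic reads of replicate 1 were fewer: with both classes the shares were 44.3% and 88.0% for Aqp1, 28.6% and 85.7% for Perm1 and 13.7% and 86.3% for Gm29773, each still called. An exchange was also found in abundant sarcomere genes: Tnni2, fast troponin I, had 310 and 0 against 0 and 1152, and Tnnc2, fast troponin C, 1 and 434 against 832 and 0.

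Genomic last-exon reads in the library with the lower share were common among the called genes. Of the 194 genes with the higher share in replicate 2, 84 had 0 member reads in replicate 1, and 83 of these had reads there in genomic single-exon models over the last exon. Of the 42 with the higher share in replicate 1, 32 had 0 member reads in replicate 2, and 31 of these had such genomic reads there. The same count was not made over all genes with 0 member reads, so it does not set the called genes apart. Genes that were not called had such reads too, as Actb in replicate 1, with 0% in members and 10.6% with both classes. Of the genes with at least 20 last-exon reads in the 2 classes together, 396 in replicate 1 and 1009 in replicate 2, these reads were all in a single class in 90.2% and 87.8%. Genes whose last-exon reads were mostly genomic outnumbered those where they were mostly member, 255 to 141 and 669 to 340.

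Genomic single-exon models over last exons were therefore counted with the members as an added comparison, chosen after these data were seen. They numbered 5229 and 7486 with 31806 and 101198 reads, and members and genomic models together held 5.35% and 12.5% of gene reads. With both classes 502 of 1834 genes (27.4%) passed, with the higher share in replicate 2 for 499 and in replicate 1 for 3. Of the 194 genes above 169 were called in the same direction and 25 were not called. Of the 42, 2 were called in the same direction, 31 in the opposite direction and 9 not at all, so the direction of most genes called higher in replicate 1 turned with the class. Klf9 became 80.1% and 94.4%, and Fam131a 68.7% and 92.9%. Des, Slc25a4, Uqcrq, Cox6a2, Cacna1s, Col4a2, Mcee and Pgm1 had 0 such genomic reads in both libraries, and their shares were the same in either count.

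**Figure D5:**
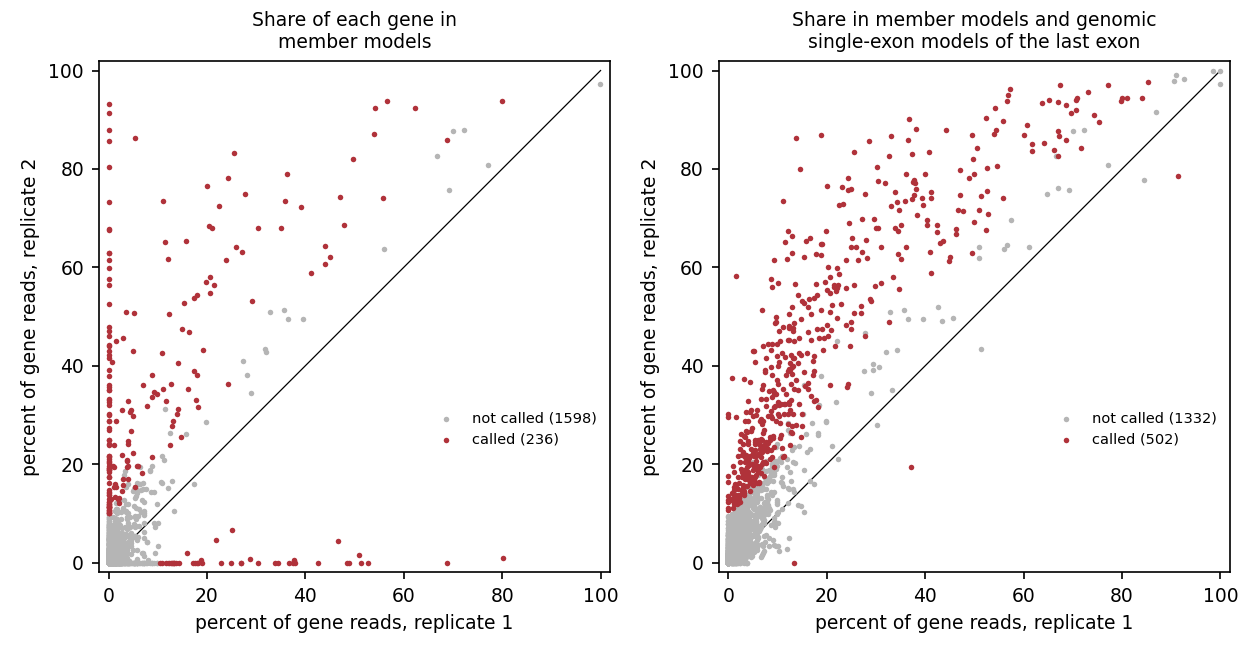
Share of each gene's reads in replicate 1 (x axis) and replicate 2 (y axis), in percent, for 1834 genes: in member models (left) and in members with genomic single-exon models of the last exon (right). Red points are genes called by Fisher's exact test, 236 on the left, some lying on an axis at 0, and 502 on the right, of which 499 were higher in replicate 2.

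Structures were also matched between libraries, spliced ones by their junction chain and single-exon ones by an overlap of at least 50% of the longer model. Of the members of replicate 1, 58.5% had reads in replicate 2, and 44.5% were members there. In the other direction it was 41.9% and 32.8%. The same overlap was not counted over all structures, so whether it differs in members cannot be read from these shares. Of the members of replicate 1 found under another class in replicate 2, 272 structures with 4458 reads were genomic, 19 with 1244 reads Suffix and 10 with 511 reads Prefix. Of the spliced members 26.7% and 28.4% had reads in the other library, against 64.3% and 43.6% of the single-exon ones.

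Reads of each structure, whatever its class, were compared with a two-sided exact binomial test given the library totals, with Benjamini-Hochberg adjustment, and a call needed a 2-fold ratio besides an adjusted p under 0.05. Of 13794 structures with at least 10 reads in sum, 4893 (35.5%) were called, 2638 (19.1%) higher in replicate 2. Of the 920 member structures tested, 427 (46.4%) were called, 376 (40.9%) with more reads in replicate 2 and 51 with more in replicate 1. Their median log2 ratio was 1.18, against 0.04 over all structures, 0.16 over 1566 Suffix structures and -0.50 over 6719 annotated ones. A structure enters the member set if either table made it a member. Scaling by TMM or DESeq2 factors moved the median of all structures to 0.30 and 0.31 and that of members to 1.43 and 1.45, and the split of calls over all structures from 2638 higher and 2255 lower to 3248 and 1699 or 3267 and 1690.

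The gene lists differed in their share of reads in members. Giant sarcomere and membrane genes, 24 of 25 with reads, had 14.8% and 45.4% of their reads in members, with 1199 and 2163 of the 4177 member reads of replicate 2 in Xirp2 and Trdn. The median share of the tested genes was 11.7% and 7.51%, the other order. Of the 12 tested 4 (Flnc, Xirp2, Cacna1s and Trdn) had a called higher share in replicate 2, and Ldb3 in replicate 1, against 12.9% over all genes. Flnc, filamin C of the Z-disc, had 20 of 123 and 67 of 143 reads in members. Ldb3, a PDZ-LIM protein of the Z-disc, had 113 of 233 and 0 of 522, with 43 and 397 reads in genomic models over its last exon, and with both classes the difference was not called. Speg, a kinase of the triad, had 42 of 63 and 128 of 155 and was not called (Fisher's exact test, adjusted p = 0.0844).

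In the sarcomere list 2 of 26 tested genes, Myom1 and Des, were called higher in replicate 2 and none lower, and the list's share was 0.872% and 1.89%. Des held 3944 of its 6614 member reads in replicate 2, and the median share of the tested genes, 0.0993% and 0.0472%, had the other order. Myl1, a fast myosin light chain, had 3 and 808 member reads of 19893 and 39881, Tnnc2 1 and 832, and Tpm2, a tropomyosin, 63 and 240, each under 10 points of difference. Myl1 had 375 and 17 genomic reads over its last exon, and with both classes its shares were 1.90% and 2.07% and not called. In the calcium handling list 4 of 15, Cacna1s, Trdn, Jph2 and Jsrp1, were called higher and Jph1 was called lower, with 30 of 120 and 7 of 106 reads. With genomic models of the last exon counted too, Jph1 stood at 25% and 64.2% and was called in the opposite direction. The list's share was 0.766% and 5.76%, and Casq1, the calcium buffer of the store, had 1.23% and 5.05%, while Pvalb, the cytosolic calcium buffer, had 2.72% and 4.17%. With 375 and 3118 genomic reads over its last exon added, Pvalb stood at 12.5% and 40.6% and was called.

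In the glycolysis list 3 of 14 tested genes were called higher in replicate 2 and none lower. These were Pgm1, Gpi1, glucose phosphate isomerase, with 4.06% and 19.7%, and Gpd1, glycerol phosphate dehydrogenase, with 21.4% and 56.5%. Pkm, pyruvate kinase, had 1.70% and 8.93%, Ldha, lactate dehydrogenase A, 0.65% and 1.61%, and Pgam2, phosphoglycerate mutase, 0 of 4829 reads, which allows 0.0621%, and 109 of 11576. Pgam2 had 32 and 0 genomic reads over its last exon, and its shares with both classes were 0.663% and 0.942%. Aldoa had 493 and 1 member reads, and 0 and 450 in genomic models.

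Of 19 nuclear oxidative phosphorylation genes tested, 0 were called higher by Fisher's exact test and 1, Cox7a1, was called lower, with 103 of 566 and 0 of 2001 member reads and 0 and 520 genomic reads. Atp5b, the catalytic beta subunit of ATP synthase, had 46 and 180 member reads, or 1.13% and 1.73%. The 15 mitochondrially encoded genes, which have no introns, held 0 member reads of 2897 and 18229. Of 19 ribosomal protein genes Rpl4 was called, with 5.03% and 29.7%. Of 6 extracellular matrix genes tested 3 collagen genes were called higher in replicate 2: Col1a1 with 2.88% and 16.9%, Col1a2 with 2.76% and 31.0% and Col3a1 with 1.54% and 28.7%. With genomic models of the last exon counted too, Col1a1 stood at 7.98% and 44.4% and Col1a2 at 12.5% and 31.0%, both still called. Of the nuclear RNAs 1 was tested and none called. No list was tested as such, and the counts are to be read against the 12.9% of all genes.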

How the data were processed

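Long-read RNA sequencing of mouse gastrocnemius gave 2 libraries of 1 group. The deposited tables give whole-number read counts per transcript model in each library, raw and not pooled, with model length, exon number and class, and the deposited annotation files give exon positions, counted from 1, on mm10 with GENCODE M21, per the file headers. Unannotated models carry TALON as their source. Aligner, tool versions and the use of strand in counting were not given in the sources used here, so genes with near-identical copies or antisense partners may share reads.

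Members were incomplete matches of subtype None or Both outside spike-in loci, which held 3.68% and 2.42% of reads. Gene counts were sums over the models of an annotated gene, and CPM were counts per 1e6 such reads. The place of a model was its relation to the exons of annotated transcripts of its gene. Sequences came from GENCODE M21 transcripts, of which 141767 of 141862 matched the annotation in length.

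Tests were Fisher's exact test and an exact binomial test, with 0.5 reads added for log2 ratios, both with Benjamini-Hochberg adjustment, in Python 3.11.15 with scipy 1.17.1. They were run on simulated counts that held counting error alone. Such counts do not show the error rate of the tests where libraries differ by more than counting error. Scaling factors came from edgeR 4.0.16 and DESeq2 1.42.0 in R 4.3.3, and no count model was fitted since 1 library a side leaves no residual degree of freedom. The gene counts of the libraries differed by more than read counting allows (chi-square per degree of freedom 24.4 over 8339 genes), so they were not treated as copies of 1 library, which does not show that they came from separate animals.

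Named genes were the 15 with the highest mean CPM in members, the 10 with the highest mean share among genes that reached 100 reads in both libraries, the 5 called with the largest difference in each direction, the 8 leading structures of each kind, list members with 100 member reads in either library and the 5 genes with the most structures. Flnc, Jph1, Col1a1 and Col1a2 were named after their values were seen. Members and lists were chosen with earlier results of these data known. Alternatives covered subtype, model length, single-read models, the least reads, the parent transcript, matching and scaling.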

Additional observations from a re-analysis of the deposited data

How the results depend on the processing

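The mean share of gene reads in members, 3.73% ± 2.05 (SD, n = 2), was 2.28% to 5.17% with either library left out, and 0.448% with subtype Both alone. The mean share of member reads in single-exon models, 87.1%, was 85.7% to 88.5% with either library left out and 99.4% with subtype None alone. The median length of 602.5 bases was 514 to 691 with either library left out, and the median place, 74.7% of the annotated transcript, was 73.3% to 76.1% and became 77.6% with each read counted once. The mean share of members with reads in the other library, 50.2%, became 65.6% with any overlap of single-exon models. The 236 genes called became 142 at 100 reads in both libraries, where fewer genes were tested, 360 with no least difference and 502 with genomic single-exon models of the last exon counted too. With these genomic models the difference of share, in percentage points from replicate 1 to replicate 2, turned from -79.1 to 14.3 for Klf9, from -68.7 to 24.2 for Fam131a, from -52.8 to 18.0 for Sdhaf4, from -49.4 to 13.1 for Anp32e and from -1.53 to 1.69 for Acta1. Klf9 and Fam131a took the same values, 14.3 and 24.2, where a structure counted as a member if either table made it one, and Scand1 lost its call under both (-7.84 from -51.3). Calls that kept their direction with a smaller difference were Jph2 (21.6 from 91.3) and Aqp1 (43.7 from 88.0) under both, Perm1 (57.1 from 85.7) under both, Trdn (11.2 from 32.9) with a member in either table and Ywhag (13.3 from 93.2) with genomic models. With subtype None alone Trdn turned from 32.9 to -0.401 and Ndufa13 from -2.73 to 0.195. Counts of structures called stayed within 1.5 times of 4893 over all structures and of 427 over members under each scaling and read minimum run. No paired analysis was possible because the design has 1 group. Depth limits low genes, where 0 member reads of 58 allow a share of up to 5.17%, and models with 1 read were 47.0% and 35.7% of members.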
